A study of Mus musculus with 12 samples.

Results

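The genes described here are the 49 mouse genes named as proteasome components, that is every symbol made of Psma, Psmb, Psmc, Psmd, Psme, Psmf or Psmg and a number, without pseudogene names ending in -ps. They are 49 of the 15788 genes in the table of wild-type libraries, and all 49 were also listed in the other 3 tables. The rule uses names and no values. All 49 passed the minimum mean normalized count of 10 in every comparison. Psmc3ip matches by name only, because it encodes a meiotic recombination factor and not a subunit.

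RNA was sequenced from bone marrow-derived macrophages (BMMs), the macrophages that bone marrow precursors form in culture, of WTfl/fl mice and of MGMT KO mice. Mgmt encodes a methyltransferase that removes alkyl groups from guanine in DNA. The cells received either the solvent DMSO or DMXAA, an agonist of mouse STING, for 24 hours, and the series text gives the DMXAA concentration as 10 mg/ml, a unit that could not be checked here. The 4 groups (WT with DMSO, WT with DMXAA, KO with DMSO, KO with DMXAA) held 3 libraries each, 12 in all, under a single batch label. The labels do not name a Cre driver for the MGMT KO, nor the age of the mice. They also do not say whether libraries of a group came from separate mice, so a p-value here reflects the spread among these libraries alone, and that spread may be technical.

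The depth was 79.5 to 98.1 M counted reads a library. Mgmt itself was lower in MGMT KO libraries but not absent: its normalized counts under DMSO were 118, 131 and 178 in KO against 248, 233 and 269 in WT, and under DMXAA 48.1, 59.4 and 32.8 against 111, 83.2 and 105. The log2 difference was -0.83 under DMSO (adjusted p = 0.00566) and -1.11 under DMXAA (adjusted p = 0.00905). All 8 macrophage markers were listed in every group, and their summed normalized counts were 1605741–1665519 with DMSO and 1128766–1154207 with DMXAA in WT. The 5 monocyte markers summed to 981–1323 with DMSO and 40180–42569 with DMXAA in WT, and to 960–991 and 26543–34873 in KO. The 7 dendritic cell markers summed to 21.1–67.3 and 556–572 in WT, and neutrophil markers under DMSO to 346–482 in WT and 63.3–92.1 in KO. Markers of T and NK cells, erythroid cells and mast cells summed to at most 25.5 in any group. The part of these shifts in the results was not tested, and in bulk RNA fewer cells of a type and less RNA per cell cannot be told apart.

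The proteasome degrades proteins tagged with ubiquitin. Its core, the 20S particle, is a barrel of alpha and beta subunits (Psma and Psmb), and the 19S cap (ATPases Psmc, other subunits Psmd) recognizes, unfolds and feeds in the substrates, the whole being the 26S proteasome. In immune cells and under interferon, the catalytic beta subunits Psmb5, Psmb6 and Psmb7 can be replaced in newly built particles by Psmb8, Psmb9 and Psmb10, which forms the immunoproteasome, and the PA28 activator of Psme1 and Psme2 can bind the ends of the barrel. The immunoproteasome is known for producing peptides that fit MHC class I molecules.

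The promoter windows of Psmb8, Psme1 and Psmb9 are shown because the inducible genes moved together under DMXAA and because they differ in the letters of interferon-response motifs that they hold. They run from 150 bases before to 30 bases after the transcription start, in RefSeq's GRCm38.p6, 5′ to 3′ on the strand of the gene. Capitals mark the gamma-activated site letters TTCNNNGAA in Psmb8 (plus strand, chr17:34198045-34198224), which start at position -97, and the reverse strand of the interferon-stimulated response element core (GAAA, 2 bases of any kind, GAAA) in Psme1 (plus strand, chr14:55578344-55578523), which starts at position 10. The window of Psmb9 (minus strand, chr17:34187301-34187480) held neither motif. All these windows lie inside the gene spans given by the annotation GENCODE vM21, whose outermost starts lie further upstream. Those outer starts were not searched for motifs.
Psmb8: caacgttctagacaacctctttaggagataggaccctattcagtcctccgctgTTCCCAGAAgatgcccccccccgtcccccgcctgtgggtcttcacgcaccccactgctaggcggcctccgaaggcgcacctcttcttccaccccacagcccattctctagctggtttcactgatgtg
Psme1: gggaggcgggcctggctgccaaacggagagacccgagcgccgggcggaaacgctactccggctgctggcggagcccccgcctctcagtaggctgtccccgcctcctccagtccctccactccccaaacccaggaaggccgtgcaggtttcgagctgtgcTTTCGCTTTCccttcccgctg
Psmb9: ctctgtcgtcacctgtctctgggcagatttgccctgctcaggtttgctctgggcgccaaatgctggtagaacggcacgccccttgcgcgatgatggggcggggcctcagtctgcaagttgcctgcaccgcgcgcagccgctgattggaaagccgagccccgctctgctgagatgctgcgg

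Of the 49 genes, 41 had a window in the RefSeq table. Searching both strands from 250 bases before to 50 after the start, the response element core was present in 5 of 41 (12.2%: Psmb3, Psmd4, Psmd9, Psme1 and Psmg4) in 3.44% of all 32851 windows and in 3.99% of the 27025 genes with a window. TTCNNNGAA was present in 3 of 41 (7.32%: Psmb8, Psmd2 and Psmg1) in 8.3% of all windows and in 9.55% of genes. The antioxidant response element core TGACNNNGC was present in 6 of 41 (14.6%: Psmb5, Psmb6, Psmc6, Psmd12, Psmd9 and Psme4), in none of the 5 inducible genes, in 12.4% of all windows and in 14% of genes. The motifs were searched as letters only, so an absent match says that these letters are not in this window. Of the 5 inducible genes, Psme1 held the first motif and Psmb8 the second, while Psmb9, Psmb10 and Psme2 held none of the 3.

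The first comparison asked which proteasome genes differed after DMXAA, separately in each genotype. The 5 inducible genes rose 4.66- to 6.22-fold in WT and 4.71- to 6.05-fold in KO, while the 31 constitutive subunits of the 26S proteasome (Psma1 to Psma7, Psmb1 to Psmb7, Psmc1 to Psmc6 and 11 Psmd genes) had a median log2 difference of 0.47 in WT and 0.57 in KO. Over all 49 genes, 40 rose and 2 fell in WT, and 41 rose and 2 fell in KO, at an adjusted p below 0.05 by limma with Benjamini-Hochberg adjustment over all genes tested, the test behind every adjusted p given here. By the same rule 31.7% of the 12752 genes tested in WT rose and 31.1% fell, and 33.7% and 32.9% of the 12704 genes tested in KO. Differences are on the scale of log2(normalized count + 1), where the median over all genes was 0.00 in both genotypes. At least 2-fold, 7 genes rose in each genotype, the 5 inducible genes and Psme2b with Psma5 in WT and with Psmc5 in KO, against 8.48% of all genes tested in WT and 9% in KO.

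How libraries are scaled bears on the smaller of these differences. The deposited values set the median gene to no change, whereas rescaling every library to the same total moves the median of all genes to -0.32 in WT and -0.39 in KO, and to the same upper quartile to -0.18 and -0.17. With the same total, the 5 inducible genes were still called higher in both genotypes, with medians of 2.10 and 2.04, and 25 of the 49 genes rose and 6 fell in WT (29 and 6 in KO). At that scale 16% of all genes tested rose and 55.6% fell in WT, and 15.7% and 61.7% in KO. Of the 31 constitutive subunits, 16 then rose and 3 fell in WT, and 20 rose and 3 fell in KO. Of all genes called in WT, 50.5% were called higher at the deposited scale, 32.6% at a common upper quartile and 22.4% at a common total, and in KO 50.6%, 34.8% and 20.3%.

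**Figure D1:**
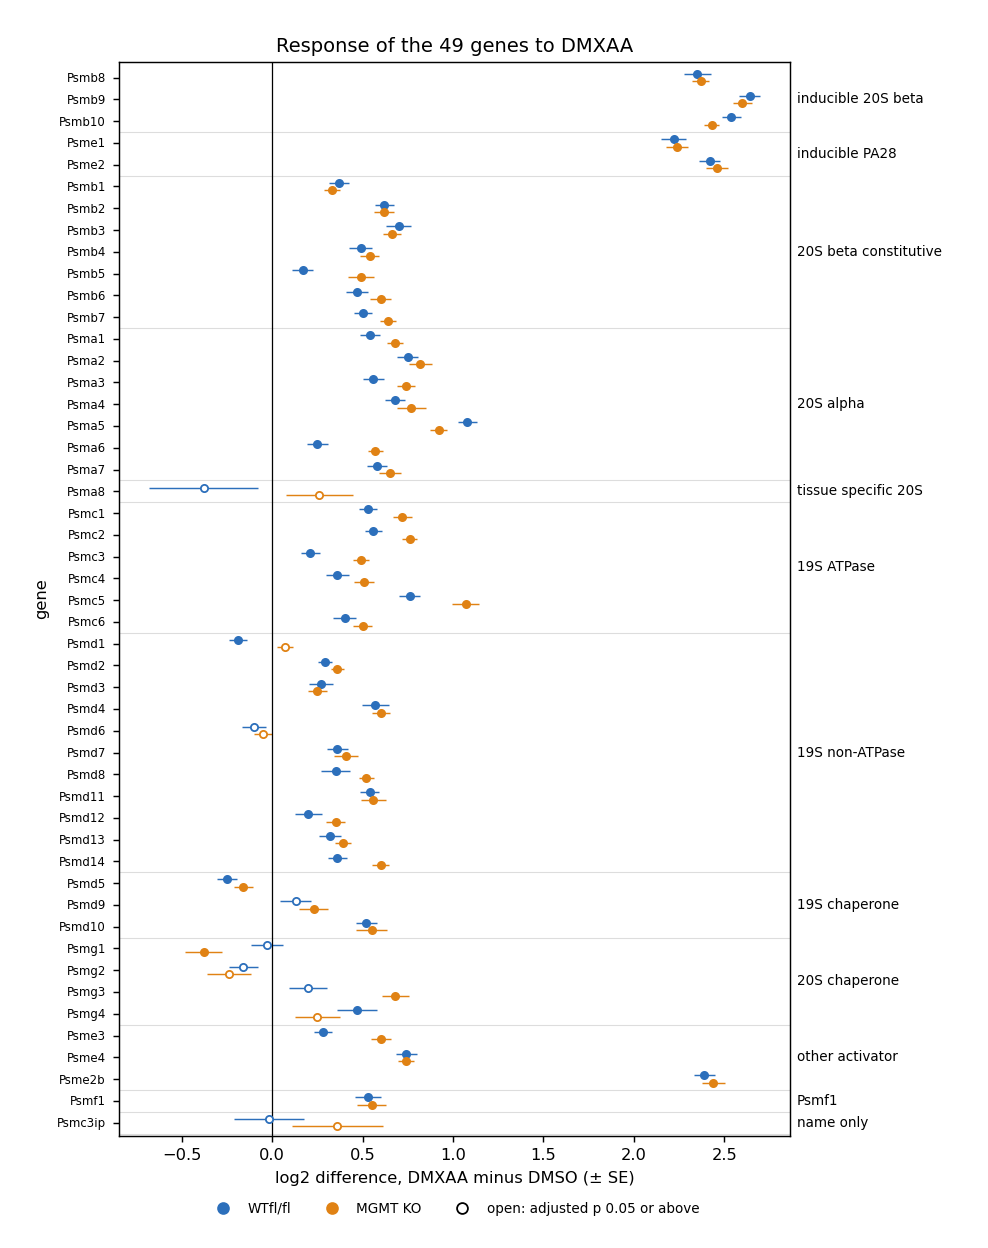
Log2 difference between DMXAA and DMSO (x axis, ± SE, n = 3 libraries a group) for each of the 49 genes (y axis), grouped by role, in WTfl/fl (blue) and MGMT KO (orange); open points have an adjusted p of 0.05 or above. The 5 inducible genes and Psme2b lie between 2.22 and 2.64, and all others below 1.1.

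Among the catalytic beta subunits, Psmb8 (plus strand, chr17:34197721-34201454 in GENCODE vM21, mm10) takes the chymotrypsin-like site that Psmb5 otherwise fills. Its normalized counts in WT were 6090, 5032 and 4954 with DMSO and 27390, 26959 and 26999 with DMXAA, a 5.08-fold rise (log2 2.35 ± 0.074 SE, adjusted p = 2.07e-09). In KO they were 5145, 4774 and 5028 with DMSO and 24846, 26402 and 25886 with DMXAA, a 5.16-fold rise (log2 2.37 ± 0.046 SE, adjusted p = 2.04e-11). The DMSO and DMXAA libraries did not overlap in either genotype, and the lowest DMXAA library was several times the highest DMSO library.

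Psmb9 (minus strand, chr17:34181987-34187764) replaces Psmb6 at the caspase-like site. Its normalized counts in WT went from 2495, 2422 and 2290 to 14164, 15662 and 15030, or 6.22-fold (log2 2.64 ± 0.057 SE, adjusted p = 1.21e-10). In KO they went from 2436, 2229 and 2262 to 13342, 14243 and 14321, or 6.05-fold (log2 2.60 ± 0.054 SE, adjusted p = 3.18e-11). It had the largest log2 difference of the 49 genes in both genotypes, with no overlap between groups. Psmb9 and the peptide transporter gene Tap1 lie head to head and their annotated exons overlap over 212 bases on opposite strands. The library kit is strand-specific, but the strand setting of the counting is not given in the sources used here, so reads in that stretch may be split between both genes.

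Psmb10 (minus strand, chr8:105935735-105938444) replaces Psmb7 at the trypsin-like site. In WT its normalized counts were 4683, 4296 and 4168 with DMSO and 24777, 25862 and 25731 with DMXAA, a 5.81-fold rise (log2 2.54 ± 0.054 SE, adjusted p = 1.06e-10). In KO they were 4245, 4145 and 4209 with DMSO and 22619, 22650 and 22572 with DMXAA, a 5.38-fold rise (log2 2.43 ± 0.040 SE, adjusted p = 5.40e-12). The 3 KO libraries within each treatment differed less than the WT libraries did, and the treatments did not overlap.

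The PA28 genes behaved likewise. Psme1 (plus strand, chr14:55578123-55581529), which encodes the alpha subunit, went from 11871, 10355 and 9723 to 48453, 49776 and 50271 in WT, or 4.66-fold (log2 2.22 ± 0.068 SE, adjusted p = 1.55e-09). In KO it went from 9397, 9970 and 10353 to 43123, 50536 and 46502, or 4.71-fold (log2 2.24 ± 0.061 SE, adjusted p = 3.07e-10). No DMXAA library of either genotype was as low as the highest DMSO library.

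Psme2 (minus strand, chr14:55587441-55591113), which encodes the beta subunit, had the highest counts of the 49 genes with DMXAA. They were 21213, 18068 and 18740 with DMSO and 101862, 104014 and 102912 with DMXAA in WT, a 5.33-fold rise (log2 2.42 ± 0.058 SE, adjusted p = 2.71e-10). In KO they were 15669, 16584 and 17872 with DMSO and 84689, 95593 and 94873 with DMXAA, a 5.49-fold rise (log2 2.46 ± 0.061 SE, adjusted p = 1.34e-10). The groups were again apart in both genotypes. Psme2b (minus strand, chr11:48945354-48946190) is a near copy, identical at 789 of 794 aligned bases (99.4%), and 69.3% of its 50-base stretches are shared with other genes, so the counts of this pair are uncertain. It was listed at 1445, 1293 and 1377 with DMSO and 7030, 7403 and 7117 with DMXAA in WT, a log2 difference of 2.39, and the difference in KO was 2.44.

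**Figure D2:**
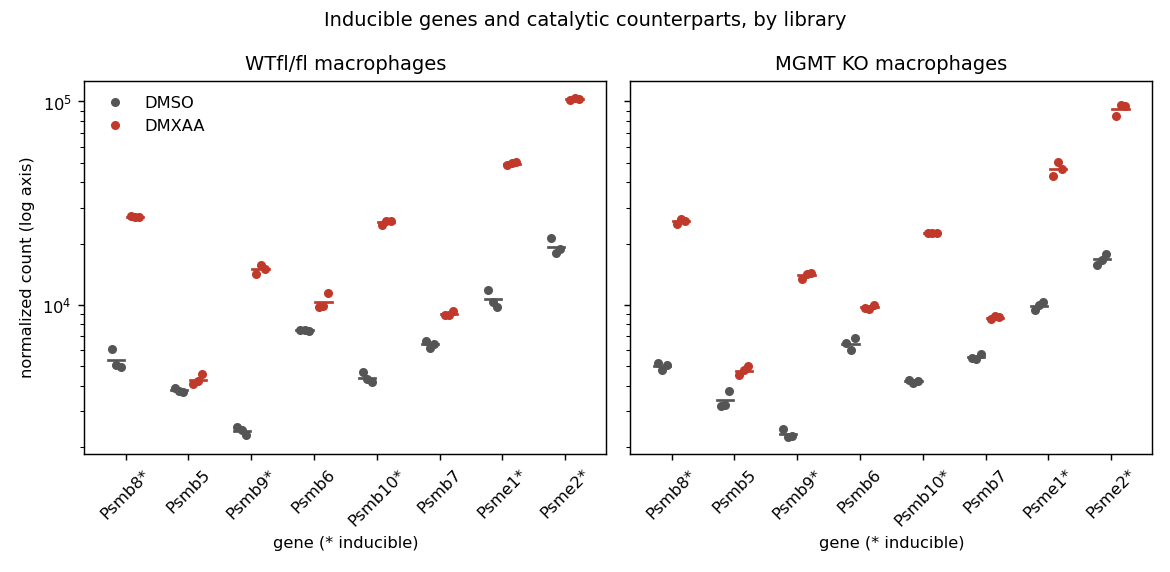
Normalized count (y axis, log axis) in every library for the 5 inducible genes (asterisk) and the constitutive catalytic subunits Psmb5, Psmb6 and Psmb7 (x axis), in WTfl/fl (left) and MGMT KO (right); points are libraries, lines are means of 3. DMSO (grey) and DMXAA (red) points of the inducible genes are widely apart, as for Psmb9 in WT with 2290 to 2495 against 14164 to 15662, while those of Psmb5, Psmb6 and Psmb7 lie close together.

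The constitutive catalytic subunits differed far less. Psmb5 (minus strand, chr14:54614119-54618022) was listed at 3883, 3764 and 3737 with DMSO and 4057, 4198 and 4563 with DMXAA in WT, a 1.12-fold rise (log2 0.17 ± 0.058 SE, adjusted p = 0.0281). In KO it went from 3174, 3220 and 3755 to 4510, 4752 and 4975, a 1.41-fold rise (log2 0.49 ± 0.072 SE, adjusted p = 1.45e-04). The groups did not overlap, but the WT difference turned with the scaling: it was -0.01 with the same upper quartile (adjusted p = 0.925) and -0.15 with the same total (adjusted p = 0.0384). At the deposited scaling the WT call held in 2 of 6 fits without a library. A share of 57.1% of the 50-base stretches of Psmb5 is also found in other annotated loci.

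Psmb6 (plus strand, chr11:70525367-70527858) went from 7482, 7503 and 7460 to 9782, 9914 and 11370 in WT, or 1.38-fold (log2 0.47 ± 0.061 SE, adjusted p = 9.30e-05). In KO it went from 6465, 5958 and 6886 to 9654, 9519 and 10018, or 1.51-fold (log2 0.60 ± 0.057 SE, adjusted p = 5.98e-06). Its groups were apart in both genotypes. Psmb7 (minus strand, chr2:38588036-38644087) went from 6647, 6108 and 6440 to 8925, 8909 and 9278 in WT, or 1.41-fold (log2 0.50 ± 0.050 SE, adjusted p = 1.31e-05). In KO it went from 5479, 5395 and 5742 to 8467, 8766 and 8669, or 1.56-fold (log2 0.64 ± 0.045 SE, adjusted p = 5.97e-07). DMSO and DMXAA libraries of Psmb7 did not overlap either.

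A ratio of 2 genes within a library does not depend on how libraries are scaled. The log2 ratio of Psmb8 to Psmb5 was 0.65, 0.42 and 0.41 with DMSO and 2.75, 2.68 and 2.56 with DMXAA in WT, so that the ratio was 4.52-fold higher. In KO it was 0.70, 0.57 and 0.42 with DMSO and 2.46, 2.47 and 2.38 with DMXAA, or 3.67-fold higher. Psmb9 to Psmb6 was 4.51-fold higher in WT and 4-fold higher in KO, and Psmb10 to Psmb7 4.11-fold and 3.45-fold. In each of these 6 contrasts the DMXAA libraries all lay above the DMSO libraries, and the two-sided exact permutation p was 0.10, the smallest that 3 against 3 allows, so none can pass 0.05, adjusted or not. Over whole groups of genes, the mean log2 level of the 5 inducible genes minus that of the 31 constitutive subunits was 0.13, 0.06 and 0.04 with DMSO and 2.06, 2.08 and 2.08 with DMXAA in WT, and 0.10, 0.10 and 0.09 against 1.92, 1.99 and 1.97 in KO.

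Counts per kilobase of the longest protein-coding transcript put the genes of a pair on a common scale. On that scale Psmb8 gave 43.7% ± 2.34 (SD, n = 3) of the sum of Psmb8 and Psmb5 with DMSO and 77.8% ± 1.15 with DMXAA in WT, and 44.9% ± 2.36 and 75.0% ± 0.67 in KO. Psmb9 gave 15.9% ± 0.56 and 46.1% ± 2.21 of its pair with Psmb6 in WT, and 17.5% ± 1.10 and 45.9% ± 0.99 in KO. Psmb10 gave 37.7% ± 1.14 and 71.4% ± 0.53 of its pair with Psmb7 in WT, and 40.2% ± 0.72 and 69.9% ± 0.37 in KO. With DMXAA the inducible transcript was thus the larger part of the pairs with Psmb5 and Psmb7 and the smaller part of the pair with Psmb6. These shares depend on the transcript length used, and with the union of all annotated exons Psmb8 gave 27.2% and 62.8% in WT and Psmb10 57.9% and 85.0%. Transcript shares are not shares of assembled subunits.

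**Figure D3:**
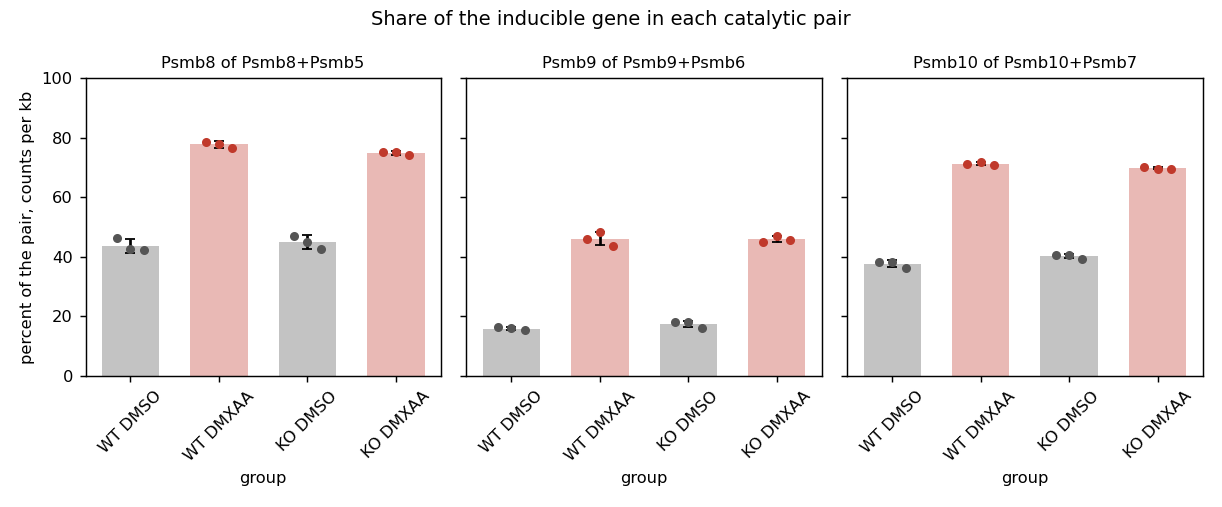
Percent of the per-kilobase counts of each catalytic pair that came from the inducible gene (y axis) in the 4 groups (x axis); bars are means of 3 libraries, error bars SD, points libraries. With DMXAA the share of Psmb8 is 77.8% in WT and 75.0% in KO, that of Psmb9 46.1% and 45.9%, and that of Psmb10 71.4% and 69.9%.

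By level per kilobase in WT with DMSO, Psme2 ranked first of the 49 genes (20104 ± 1722 normalized counts per kilobase, SD, n = 3), Psme1 was at rank 4 (9577 ± 993) and Psmb6 at rank 5 (9375 ± 26.8). Psme1 and Psmb6 did not differ beyond their spread. Psmb10 (3343 ± 204) and Psmb8 (3292 ± 390) ranked 21 and 23 with overlapping ranges, and Psmb9 ranked 34 (1777 ± 76.8). With DMXAA in WT, Psme2 (106995 ± 1119), Psme1 (44514 ± 845) and Psmb10 (19418 ± 452) held ranks 1 to 3, Psmb8 (16656 ± 146) was at rank 5 and Psmb9 (11059 ± 556) at rank 8. The order in KO was close, with Psmb8 going from rank 24 to rank 6 and Psmb9 from 34 to 9. Psma8, the alpha subunit of the testis, was last in every group at 43 to 56.8 counts per kilobase, and its counts with DMSO and DMXAA overlapped.

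All 7 constitutive alpha subunits rose in both genotypes, with a median log2 difference of 0.58 in WT (0.25 for Psma6 to 1.08 for Psma5) and 0.74 in KO (0.57 for Psma6 to 0.92 for Psma5). Psma5 went from 4950, 4733 and 4380 to 9820, 10080 and 9819 in WT, or 2.12-fold (log2 1.08 ± 0.055 SE, adjusted p = 8.63e-08). In KO it went from 4521, 4519 and 4313 to 8368, 8352 and 8574, or 1.89-fold (log2 0.92 ± 0.045 SE, adjusted p = 3.03e-08). Psma5 was thus the 1 constitutive subunit that more than doubled in WT, with its groups apart; 54.5% of its 50-base stretches are shared with other loci. With the same total, 6 of the 7 alpha genes still rose in WT and 7 in KO. The 7 constitutive beta subunits also all rose as deposited, with medians of 0.49 in WT (0.17 for Psmb5 to 0.70 for Psmb3) and 0.60 in KO (0.33 for Psmb1 to 0.66 for Psmb3). With the same total, 5 of them rose and 1 fell in WT, and 5 rose in KO.

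Of the cap genes, the 6 ATPases, which unfold substrates, all rose, with medians of 0.47 in WT (0.21 for Psmc3 to 0.76 for Psmc5) and 0.62 in KO (0.49 for Psmc3 to 1.07 for Psmc5), and with the same total 3 rose in WT and 4 in KO. Psmc5 was listed at 4607, 4353 and 4018 with DMSO and 7321, 7478 and 7208 with DMXAA in WT, a 1.7-fold rise, and at 3580, 3410 and 4250 against 8033, 7903 and 7587 in KO, a 2.1-fold rise. Its groups did not overlap in either genotype. Of the 11 non-ATPase subunits, 9 rose in each genotype, with medians of 0.32 in WT and 0.39 in KO and the largest difference for the ubiquitin receptor Psmd4 (0.57 and 0.60), but with the same total 2 rose and 2 fell in WT, and 4 rose and 3 fell in KO. Psmd1, a large scaffold subunit of the cap, fell in WT, from 10691, 10066 and 10405 to 8787, 9401 and 9074 (log2 -0.19 ± 0.048 SE, adjusted p = 0.00565). In KO, Psmd1 was listed at 9381, 9692 and 9849 with DMSO and 10455, 9986 and 9947 with DMXAA, a log2 difference of 0.07 (adjusted p = 0.174). Psmd6 was not called in either genotype, at -0.10 in WT and -0.05 in KO, but was called lower with the same total.

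The chaperones that build the particle did not move as a block. Psmd5, a chaperone of cap assembly, fell in WT from 3435, 3584 and 3520 to 2969, 2838 and 3061 (log2 -0.25 ± 0.055 SE, adjusted p = 0.00268), and in KO from 3454, 3261 and 3342 to 3113, 2927 and 2967 (-0.16 ± 0.053 SE, adjusted p = 0.0215). Its DMXAA libraries all lay below its DMSO libraries, but the KO call held in 3 of 6 fits without a library. The other cap chaperones were Psmd10, which rose by 0.52 in WT and 0.55 in KO, and Psmd9, at 0.13 in WT (adjusted p = 0.191) and 0.23 in KO (adjusted p = 0.0278). The KO call of Psmd9 held in 2 of 6 fits without a library. It was lost with the same total and with the same upper quartile.

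Of the 4 chaperones of 20S assembly, Psmg4 rose in WT (0.47, adjusted p = 0.00453) and was at 0.25 in KO (adjusted p = 0.104), and Psmg2 was called in neither genotype. Psmg3 rose in KO from 663, 720 and 711 to 1114, 1181 and 1071 (log2 0.68, adjusted p = 1.75e-05), and in WT its 1002, 848 and 838 with DMSO and 1156, 919 and 1016 with DMXAA overlapped (0.20, adjusted p = 0.124). Psmg1 fell in KO from 523, 530 and 584 to 470, 382 and 405 (-0.38, adjusted p = 0.00783), and in WT its 498, 452 and 456 and its 465, 457 and 450 overlapped (-0.03, adjusted p = 0.746).

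Among the other activators, Psme3, the nuclear PA28 gamma subunit, rose from 3881, 3841 and 4001 to 4698, 4660 and 4847 in WT (log2 0.28 ± 0.049 SE, adjusted p = 7.45e-04). In KO it rose from 3428, 3733 and 3645 to 5217, 5575 and 5625 (0.60 ± 0.055 SE, adjusted p = 3.88e-06). The WT difference of Psme3 was -0.04 (adjusted p = 0.476) with the same total. Psme4, the activator PA200, rose by 0.74 in each genotype, and Psmf1, first described as a proteasome inhibitor, by 0.53 and 0.55. Psmc3ip was called in neither genotype.

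Genes around the proteasome were taken from 5 lists, whose counts stand against the 31.7% of all genes that rose and 31.1% that fell in WT, and 33.7% and 32.9% in KO. Of 13 other proteasome-associated genes, 7 rose and 2 fell in WT and 10 rose and 2 fell in KO, that is 53.8% and 76.9% higher and 15.4% lower in each. The 3 of them with the smallest p in WT were Pomp, the maturation factor of the 20S core (log2 0.97 in both genotypes, adjusted p = 1.81e-07 in WT and 3.21e-07 in KO), Zfand2a (0.56 in WT) and Fbxo7 (0.59 in WT), and Ipo9 fell by 0.61 in WT and by 0.38 in KO. Of 5 genes of the feedback that restores proteasome transcription, 2 rose (40%) and 1 fell (20%) in each genotype: Keap1, the adaptor that destines Nfe2l2 for degradation, by 1.44 and 1.35, Nfe2l1, the factor that drives subunit genes when the proteasome is inhibited, by 0.52 and 0.56, and Nfe2l2 fell by 0.46 and 0.67. Of 15 ubiquitin and shuttle genes, 7 rose (46.7%) and 4 fell (26.7%) in WT and 7 rose and 3 fell (20%) in KO, with Uba7, which activates the ubiquitin-like ISG15, at 2.44 and 2.52 and the ubiquitin gene Ubb at 1.20 and 1.23.

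Of 8 interferon regulators of the immunoproteasome, 6 rose (75%) and 1 fell (12.5%) in WT and 6 rose and 2 fell (25%) in KO, Stat2 by 3.51 and 3.96 and Irf1 by 2.17 and 1.87. Of 10 genes of peptide trimming and transport, 4 rose and 4 fell in WT (40% each) and 5 rose (50%) and 3 fell (30%) in KO, led by the transporter genes Tap1 (2.99 and 3.20) and Tap2 (2.16 and 1.88) and the loading factor Tapbp (2.20 and 1.98). The median of that list was -0.06 in WT and 0.12 in KO.

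The second comparison asked where MGMT KO macrophages differed from WT under the same treatment. It shares its libraries with the comparisons above, so values are set side by side and not correlated. Under DMSO none of the 49 genes was higher in KO and 14 were lower (28.6%), against 7.04% higher and 9.58% lower of all 12814 genes tested, and the median was -0.16 against 0.01 over all genes. A log2 difference below 0 was found for 44 of the 49, a count not set against the share of all genes below 0. At an unadjusted p below 0.05 limma called 27 lower and 0 higher, against 15.4% lower and 13.9% higher of all genes, and neither edgeR nor DESeq2 called any higher. The 14 were Psma1, Psma2, Psma6, Psmb2, Psmb6, Psmb7, Psmc1, Psmc2, Psmc3, Psmd2, Psmd12, Psmd14, Psme2 and Psmg3, at -0.15 (Psmd2) to -0.40 (Psmg3), and 12 of them are constitutive subunits of the 26S particle. The count rests on few libraries. It was 5 without KO DMSO replicate 1, 7 without KO DMSO replicate 2 and 9 without WT DMSO replicate 1. Of all genes, 886 of 12805, 1001 of 12817 and 1071 of 12802 were lower in the same fits. With every library 1227 of 12814 were lower. Psma1, Psmb6, Psmb7 and Psmc3 were called in all 6 fits without a library. With a replicate block on the title number the calls of Psma6 (adjusted p = 0.0506), Psmd12 (0.0561) and Psmd2 (0.0654) were lost.

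Psmc3, an ATPase subunit, was listed at 7942, 7751 and 8096 in KO and 10079, 9428 and 9353 in WT under DMSO (log2 -0.28 ± 0.053 SE, adjusted p = 0.00447). Psmg3 was listed at 722, 786 and 772 in KO and 1122, 952 and 938 in WT (-0.40 ± 0.092 SE, adjusted p = 0.0125). Neither gene's groups overlapped. Psme2 was listed at 17050, 18110 and 19411 in KO and 23762, 20270 and 20968 in WT (-0.25 ± 0.069 SE, adjusted p = 0.0297). It was the 1 inducible gene called under DMSO, in 2 of 6 fits without a library, and Psmb8 (-0.14, adjusted p = 0.268), Psmb9 (-0.10, adjusted p = 0.36), Psmb10 (-0.10, adjusted p = 0.301) and Psme1 (-0.14, adjusted p = 0.229) did not pass. In these DMSO libraries the macrophage markers summed to 1432559–1536028 in KO and 1801419–1865673 in WT, the neutrophil markers to 63.3–92.1 and 346–482, the B cell markers to 33.4–65.8 and 101–173 and the stromal markers to 75–501 and 25.7–78.3. The part of these differences in the result was not tested.

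**Figure D4:**
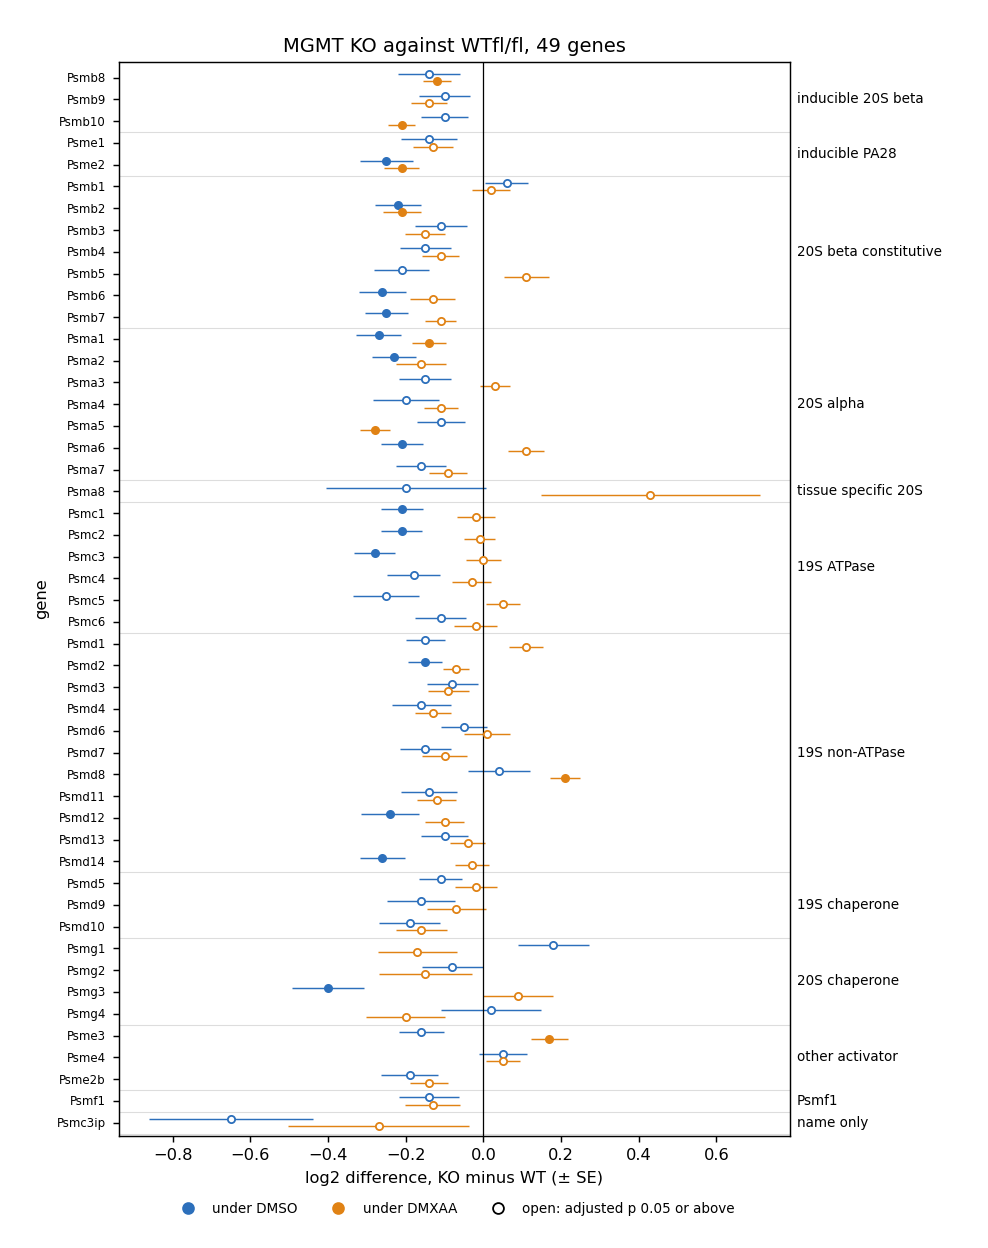
Log2 difference between MGMT KO and WTfl/fl (x axis, ± SE, n = 3 libraries a group) for each of the 49 genes (y axis), under DMSO (blue) and DMXAA (orange); open points have an adjusted p of 0.05 or above. Under DMSO 14 filled points lie left of 0 and none right of it; under DMXAA 6 lie left and 2 right.

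Under DMXAA 6 genes were lower and 2 higher in KO, against 10.8% lower and 10.7% higher of all 12499 genes tested, with a median of -0.10 against 0.00. The share of members called lower, 6 of 49, is near that background. Psmb10 was listed at 20274, 20245 and 20182 in KO and 22909, 23771 and 23715 in WT (log2 -0.21 ± 0.035 SE, adjusted p = 0.00146). Psme2 was at 75910, 85444 and 84828 in KO and 94182, 95601 and 94847 in WT (-0.21 ± 0.045 SE, adjusted p = 0.00739). Psmb8 was at 22271, 23599 and 23145 in KO and 25325, 24778 and 24883 in WT (-0.12 ± 0.036 SE, adjusted p = 0.0388). In all 3 the groups did not overlap, but the call of Psmb8 held in 1 of 6 fits without a library and was lost with the block on the title number (adjusted p = 0.0669). Psmb9 (-0.14, adjusted p = 0.0568) and Psme1 (-0.13, adjusted p = 0.103) did not pass. By the authors' own deposited adjusted p, Psmb9 passed 0.05 as lower in KO and Psme1 did not. With the same total, 18 members were lower and 1 higher, the 5 inducible genes among the lower ones, against 14.4% lower and 7.51% higher of all genes at that scale. In these DMXAA libraries the macrophage markers summed to 876574–886127 in KO and 1040311–1060855 in WT, the monocyte markers to 23792–31180 and 37143–39126 and the neutrophil markers to 56.6–66.5 and 200–251. The part of these differences in the result was not tested.

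The others called lower under DMXAA were Psma5 (-0.28, adjusted p = 6.16e-04), Psmb2 (-0.21, adjusted p = 0.0107) and Psma1 (-0.14, adjusted p = 0.0444, called in 1 of 6 fits without a library and lost with the block, adjusted p = 0.0599). Psma5 was listed at 7500, 7465 and 7666 in KO and 9080, 9264 and 9049 in WT, without overlap. The cap subunit Psmd8 was higher in KO, at 15780, 16084 and 15557 against 13919, 13129 and 13855 (log2 0.21 ± 0.039 SE, adjusted p = 0.00313). Psme3 was higher too, at 4676, 4983 and 5029 against 4344, 4283 and 4467 (0.17 ± 0.048 SE, adjusted p = 0.0312), a call lost with the same total (adjusted p = 0.0915) and with the same upper quartile (adjusted p = 0.0566). Psma1, Psmb2 and Psme2 were called lower under both treatments, 3 of the 14 called under DMSO and 3 of the 6 called under DMXAA.

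The third comparison tested whether the response to DMXAA differed between genotypes, as the KO response minus the WT response over all 12 libraries. Of the 49 genes, 6 had a more positive response in KO and none a more negative one, against 5.37% and 3.24% of all 12729 genes tested. At an unadjusted p below 0.05 limma called 12 more positive and 2 more negative, against 12.2% and 9.76% of all genes, and edgeR and DESeq2 called 0 more negative after adjustment. The 6 were Psma6 of the alpha ring (difference 0.31, 95% interval 0.16 to 0.47, adjusted p = 0.0132), the ATPase Psmc3 (0.28, 0.14 to 0.42, adjusted p = 0.0152), the scaffold Psmd1 (0.26, 0.13 to 0.39, adjusted p = 0.0143), the deubiquitinase Psmd14 (0.23, 0.09 to 0.38, adjusted p = 0.0449), the activator Psme3 (0.32, 0.18 to 0.47, adjusted p = 0.00934) and the chaperone Psmg3 (0.48, 0.20 to 0.77, adjusted p = 0.036). The calls of Psma6, Psmc3, Psmd1 and Psme3 held in all 12 fits without 1 library, that of Psmg3 in 4 and that of Psmd14 in 1, and with the block on the title number Psmd14 was lost (adjusted p = 0.0625). With the same total 3 of the 6 were called, against 3.79% more positive of all genes.

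The counts of the DMXAA responses below were scaled within each genotype, so those of WT and KO are not on a common scale. Psma6 shows the difference between the responses in the library values. It was listed at 14782, 13803 and 13390 with DMSO and 16734, 15715 and 17539 with DMXAA in WT, and at 12072, 12349 and 12996 against 18169, 18426 and 18828 in KO. Psmc3 went from 8998, 8404 and 8359 to 9759, 10469 and 9613 in WT and from 7299, 7098 and 7454 to 9961, 10457 and 10340 in KO. Psmd14 went from 4219, 4038 and 3818 to 5167, 5266 and 5085 in WT and from 3399, 3451 and 3522 to 5312, 5280 and 5097 in KO. With both genotypes scaled together, the KO libraries of these 3 genes were lower with DMSO (adjusted p below 0.05 each). Psma6 was then at 13136, 13486 and 14115 in KO and 16558, 15485 and 14982 in WT. This call held in 2 of 6 fits without a library for Psma6, in 5 for Psmd14 and in 6 for Psmc3. Under DMXAA none of the 3 was called between genotypes.

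No inducible gene was called in this test by limma, edgeR or DESeq2, nor at an unadjusted p below 0.05 by limma. The intervals hold for the deposited scaling and reflect only the spread among these libraries. The KO response minus the WT response was 0.02 for Psmb8 (95% interval -0.18 to 0.22, adjusted p = 0.935) and -0.04 for Psmb9 (-0.21 to 0.12, adjusted p = 0.821). It was -0.11 for Psmb10 (-0.25 to 0.02, adjusted p = 0.331), 0.01 for Psme1 (-0.20 to 0.22, adjusted p = 0.964) and 0.04 for Psme2 (-0.15 to 0.23, adjusted p = 0.864). With the same total, all 5 inducible genes had a difference below 0, with a median of -0.06, and none was called. For Psmb5 the KO response minus the WT response was 0.32 (0.12 to 0.52) at the deposited scaling, with an adjusted p of 0.051. That p was 0.0345 with the block and 0.0328 with a common upper quartile. Of the lists, 4 of 8 interferon regulators responded more and 2 less in KO, 1 of 10 trimming and transport genes more and 2 less, and 1 of 5 feedback genes less. Of all 12729 genes tested, 5.37% responded more and 3.24% less in KO. Of 13 proteasome-associated and 15 ubiquitin genes limma, edgeR and DESeq2 called 0. At an unadjusted p below 0.05 limma had 1 and 2 of them more positive, against 12.2% of all genes.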

How the data were processed

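Strand-specific mRNA libraries were sequenced, and the submitters' processing notes name HISAT2 (an aligner), featureCounts (a read counter) and the build mm10, with versions and settings not given in the sources used here. What the authors deposited were 4 tables of 6 libraries (WT, KO, DMSO, DMXAA), whose values, signal in the form of normalized counts, are gene counts divided by 1 factor a library, as the steps between values show. They also deposited tables of log2 fold changes and p-values for the same 4 comparisons. Every deposited value came out as a whole number of reads after division by its library's step, the smallest value above 0 (100% of values, tolerance 0.01), which gave the depth of 79.5 to 98.1 M reads.

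Tests were run within a table with limma 3.58.1 (R 4.3.3) on log2(normalized count + 1) for genes with a mean of at least 10, with moderated variances following a trend, Benjamini-Hochberg adjustment and a threshold of 0.05, without a replicate block. The interaction was fitted over the DMSO and DMXAA tables with all 4 groups, each treatment scaled within its own table. On simulated counts for the 4 comparisons, a log2 change of 1 was recovered for 100% of 100 changed genes in each, and a change of 0.3 for 74%, 67%, 70% and 68% of 100 (WT, KO, DMSO, DMXAA). The simulation gave every gene the same dispersion and changed no gene with a mean near the minimum of 10. These rates therefore need not hold for the real libraries. Alternatives were edgeR 4.0.16 and DESeq2 1.42.0 on the recovered reads, other pseudocounts, filters and scalings, replicate blocks and leaving out each library. In the authors' deposited tables, at an adjusted p below 0.05, 40 members were higher and 2 lower in WT, 41 and 2 in KO, 0 and 17 under DMSO and 2 and 10 under DMXAA. The share of all genes called there was not computed, so these counts are not set against a background.

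Genes named are the 5 inducible genes and their 3 counterparts, the extremes and few called genes of each role group, the genes called in the interaction, Mgmt, and the 3 smallest p values of each list with Tap1 and Tap2; 2 genes of these lists that the rule names are not reported here. The members and lists were chosen with earlier results of these data known. Gene positions and transcript lengths come from GENCODE vM21, promoters from RefSeq.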

Additional observations from a re-analysis of the deposited data

Results flagged for a closer look

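The response to DMXAA differed between genotypes by the interaction test for 6 proteasome genes (12.2%), against 5.37% more positive of all 12729 genes tested. The KO response minus the WT response (log2) was 0.31 for Psma6, 0.28 for Psmc3, 0.26 for Psmd1, 0.23 for Psmd14, 0.32 for Psme3 and 0.48 for Psmg3. The call of Psmd14 held in 1 and that of Psmg3 in 4 of 12 fits without 1 library. With the same total, 3 members were called, against 3.79% more positive of all genes.

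The same test marked 5 of the list genes named above. Of all 12729 genes tested, 5.37% were more positive and 3.24% more negative. Stat2 (0.45, adjusted p = 3.18e-04), which carries interferon signals to the nucleus, responded more in KO. Irf1 (-0.30, adjusted p = 0.00281), a transcription factor of the immunoproteasome genes, Tap2 (-0.28, adjusted p = 0.0158), Tapbp (-0.22, adjusted p = 0.0271) and Nfe2l2 (-0.21, adjusted p = 0.0422) responded less in KO.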

How the results depend on the processing

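Of 672 refits of single named genes, 633 stayed on their side of the threshold, 21 gained the call and 16 lost it. The other 2 changed sign with a call in either fit, both for Psmb5 in WT: -0.15 with the same total and -0.01 with the same upper quartile. Changes of sign with no call in either fit are among the 633. Psmb8 in the interaction, for example, ran from -0.07 to 0.07 without 1 library. With the same total, members called higher and lower were 25 and 6 in WT, the KO response had 6 lower, KO against WT under DMXAA had 1 higher and 18 lower, and the interaction had 3. With the same upper quartile, 32 were higher and 4 lower in WT, 4 were lower in KO, 18 were lower under DMSO, 1 was higher and 11 lower under DMXAA, and 7 were called in the interaction, Psmb5 among them. At that scale, 2732 of all 12758 genes tested were higher and 5639 lower in WT, and 5673 of 12723 were lower in KO. Under DMSO 1447 of 12813 genes were lower, and under DMXAA 1082 of 12501 were higher and 1526 lower. For the interaction, 715 of 12730 genes were more positive. DESeq2 on the recovered reads called 11 lower under DMXAA and 17 under DMSO, where edgeR called 14. Of all genes, DESeq2 called 1429 of 12499 lower under DMXAA and 1352 of 12814 under DMSO, where edgeR called 1239. For the interaction edgeR called 7 and DESeq2 9, all more positive, against 702 and 920 more positive of all 12729 genes. No member was called higher in KO under DMSO by limma, edgeR or DESeq2.

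Without 1 library, members called higher were 38 to 41 in WT, 40 to 41 in KO, 0 to 0 under DMSO, 1 to 2 under DMXAA and 4 to 6 in the interaction. Members called lower were 2 to 3, 1 to 3, 5 to 14, 4 to 7 and 0 to 0. Of all 12486 to 12817 genes tested, those called higher were 3674 to 4019, 3957 to 4164, 513 to 826, 960 to 1115 and 553 to 704. Those called lower were 3589 to 3845, 3796 to 4021, 886 to 1071, 999 to 1159 and 271 to 408. The log2 ratio of Psmb8 to Psmb5 was 2.13 to 2.25 higher in WT and 1.81 to 1.94 in KO.

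The replicate numbers of the titles and the numerals of the library names match libraries alike within a treatment but disagree between DMSO and DMXAA. Neither was taken as a pairing. Correlations of same-numbered libraries ran from -0.036 to 0.066, and with 3 libraries a group such values cannot exclude a pairing. With a replicate block on the title number, 40 rose and 2 fell in WT, 41 and 3 in KO, 12 were lower under DMSO, 2 higher and 6 lower under DMXAA, and 6 were called in the interaction. Of all genes with that block, 3989 of 12752 rose and 3876 fell in WT, and 4173 of 12704 rose and 4094 fell in KO. Under DMSO 1139 of 12814 genes were lower, and under DMXAA 1235 of 12499 were higher and 1256 lower. In the interaction 989 of 12729 genes were called. The members called with the block are not the same genes as without it. The block lost Psma6, Psmd12 and Psmd2 under DMSO, Psma1 and Psmb8 under DMXAA and Psmd14 in the interaction. It gained Psmc3ip under DMSO, Psma2 and Psmb9 under DMXAA, Psmb5 in the interaction and Psmg2 in KO. With a replicate block on the numeral, 38 rose and 1 fell in WT, where 3460 of all 12752 genes rose and 3419 fell. With 3 libraries a group, a difference that misses the threshold is not shown to be absent.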
